A study of Mus musculus with 3 samples.

Results

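Cyclins and cyclin-dependent kinases (Cdk genes) were examined on 3 arrays of sorted mouse haematopoietic stem cells. The genes were chosen by symbol in the platform annotation: every single-gene probe set of a cyclin named Ccn plus a letter, or of a Cdk plus a number, except Ccng1. This gave 42 genes, 23 cyclins and 19 kinases, among the 19938 genes measured. They were read by 46 probe sets. All 3 arrays hold wild-type marrow cells of C57Bl/6 mice, 6 to 10 weeks old, sorted as lineage-negative, c-Kit+, Sca-1+, CD150+, CD48- and CD41-, the population called KLS SLAM. The labels give no treatment, no second genotype and no pooling. They do not say whether the arrays came from separate animals, so the spread given here is that between these samples, which may be technical.

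A cyclin is the regulatory subunit that switches on a Cdk, and the cell cycle advances as one cyclin-Cdk pair gives way to the next. D-type cyclins with Cdk4 and Cdk6 act in G1 on the retinoblastoma protein, E- and A-type cyclins with Cdk2 act at the entry into and during S phase, and A- and B-type cyclins with Cdk1 drive G2 and mitosis. A separate branch of the family does not time the cycle but phosphorylates RNA polymerase II or the Mediator complex. Long-term stem cells of the marrow are known to be mostly quiescent, outside the cycle, and to re-enter it rarely.

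As no detection calls are used here, the background range was taken from 1227 receptor genes of smell, pheromone sensing and taste (Olfr, Vmn and Tas families), which marrow cells are not expected to express. A gene was above the range when its log2 intensity exceeded their 95th percentile on all 3 arrays. The limits of arrays 1, 2 and 3 were 6.30, 5.98 and 5.77, and 31 of the receptor genes themselves passed all 3. Of all genes, 39.3%, 49.1% and 55.2% passed the limits of arrays 1, 2 and 3. A gene that passed on array 3 alone was therefore not always highest there. Each probe set has its own affinity, so the level of one gene was not ranked against that of another. Median intensities were 56.7 to 60.4. Of the 3 positive sort markers listed 2 were measured, Kit and Slamf1 (CD150), and both were above the range. Of the negative ones, Cd48 was not above it, at 4.61, 5.62 and 6.14 log2, but passed the limit on array 3. Itga2b (CD41) lay just above the range at 6.24 to 6.51 log2.

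Of the 42 cyclin and Cdk genes, 24 were above the range on all 3 arrays, which is 57.1%, against 36.8% of all genes. All genes include the 1227 receptor genes that set the limit, which lowers their share, as only 31 of these were above the range. The G1 genes were all above it and those of S phase mostly were not. By class the counts were 5 of 5 for G1, 1 of 5 for S phase, 2 of 4 for G2 and mitosis, 10 of 13 for the transcriptional branch and 6 of 15 for the remaining genes. The classes are small and were not tested against each other. Cyclins and kinases had near-equal shares, 13 of 23 and 11 of 19. The median over the 42 genes of the mean log2 intensity was 6.78, against 5.96 over all genes. Of the 18 genes not above the range, 6 were below the limit on every array, and the other 12 passed it on 1 or 2 arrays. Of all 19938 genes, 8380 were below the limit on every array. With the 99th percentile of the receptor genes as the limit, 17 of the 42 genes were above the range (40.5%), against 17.4% of all genes, among them 4 G1 genes and 8 of the transcriptional branch.

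**Figure D1:**
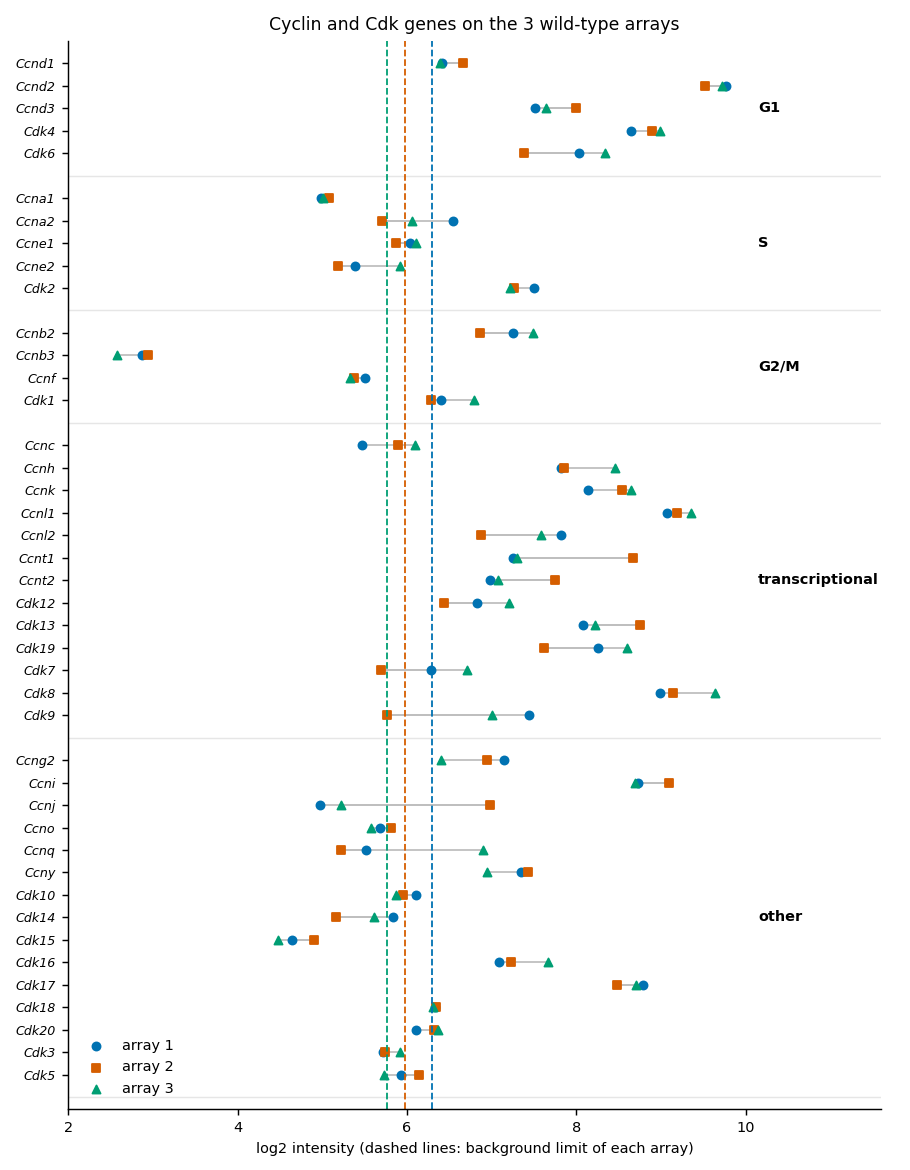
Log2 intensity (horizontal axis) of each of the 42 cyclin and Cdk genes on arrays 1, 2 and 3, grouped by class, with dashed lines at each array's background limit of 6.30, 5.98 and 5.77. The 5 G1 genes lie right of all 3 lines, while 4 of the 5 S-phase genes have at least 1 point left of the line of its own array.

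**Figure D2:**
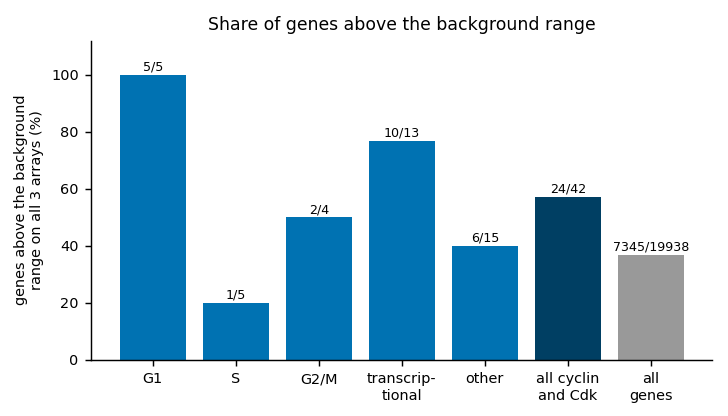
Share of genes (%) above the background range on all 3 arrays, by class, for all 42 cyclin and Cdk genes and for all 19938 genes, with counts over the bars. The share was 57.1% for the cyclin and Cdk genes, against 36.8% for all genes.

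The genes of G2 and mitosis introduce the sequences shown here. Cdk1, the kinase of mitotic entry, and Ccnb2, one of its B-type cyclin partners, were the 2 measured genes of this class above the range. They also shared an order of arrays, lowest on array 2 and highest on array 3. That order was common, found for 14.6% of all genes and 20.7% of all genes above the range. The promoters of Cdk1 and Ccnb2 are printed because genes of this class are known to carry CCAAT boxes and the cell cycle homology region (CHR) near their start sites. The CHR is known as an element of their repression in resting cells, and CCAAT boxes as sites of the activator NF-Y. Both sequences come from RefSeq with build GRCm38.p6, run 5′ to 3′ on the strand of the gene, and cover 250 bases before and 50 after the start site. Capitals mark 3 kinds of motif searched on both strands: the CHR, spelled TTTGAA, the CCAAT box, and E2F sites, spelled TTTCCCGC, TTTGGCGC, TTTCGCGC or TTTGCCGC. No marked motif overlapped another.
Ccnb2, chr9:70421505-70421804, minus strand: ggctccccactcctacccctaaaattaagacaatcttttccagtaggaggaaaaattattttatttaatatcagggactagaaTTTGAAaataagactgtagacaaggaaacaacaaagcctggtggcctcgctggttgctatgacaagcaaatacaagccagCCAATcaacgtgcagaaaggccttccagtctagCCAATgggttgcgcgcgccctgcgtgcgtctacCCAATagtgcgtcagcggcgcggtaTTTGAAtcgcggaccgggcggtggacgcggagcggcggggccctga
Cdk1, chr10:69352863-69353162, minus strand: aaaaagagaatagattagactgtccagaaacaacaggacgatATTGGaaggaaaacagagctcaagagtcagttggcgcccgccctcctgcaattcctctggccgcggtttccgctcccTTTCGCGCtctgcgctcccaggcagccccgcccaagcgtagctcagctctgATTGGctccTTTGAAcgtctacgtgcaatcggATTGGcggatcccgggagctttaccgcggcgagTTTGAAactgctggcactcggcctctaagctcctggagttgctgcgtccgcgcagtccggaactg

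The Ccnb2 window held 3 CCAAT boxes, starting at positions -87, -54 and -21 from the start site and each 33 bases from the next, with a TTTGAA at positions 5 to 10 and another at -167 to -162. The Cdk1 window held 3 CCAAT boxes on the opposite strand, TTTGAA at -71 to -66 and at -15 to -10, and 1 E2F match, TTTCGCGC, at -131 to -124. RefSeq windows matched 32 of the 42 genes, with 34 windows in all. TTTGAA occurred in 5 of these 34 windows (14.7%), those of Ccnb2, Cdk1, Ccnf, Ccni and Cdk16, against 17.9% of all 32851 windows. A CCAAT box occurred in 15 (44.1%), against 37.4% of all windows. An E2F match occurred in 2 (5.88%), those of Cdk1 and Cdk2, against 2.26% of all windows. A match is a string of letters and does not show binding.

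Cdk1 was at 6.40, 6.28 and 6.79 log2 on arrays 1, 2 and 3, a mean of 6.49 ± 0.27 (SD, n = 3). It exceeded the limit by 0.10 on array 1 and by 1.03 on array 3, so it lay close to the range on array 1, and it was not above the range with the 99th percentile as the limit. Ccnb2, whose CHR matches are shown above, was at 7.25, 6.87 and 7.49, or 7.21 ± 0.32, at least 0.89 above the limit on each array. The rest of the class was below the limit on every array. Ccnf, an F-box protein that directs substrates to a ubiquitin ligase in G2, was at 5.51, 5.38 and 5.33. Ccnb3, a cyclin of meiosis, was at 2.87, 2.94 and 2.57, far below the limit. Ccnb1 is not analysed here.

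The G1 genes were the one class with every member above the range. Ccnd2, a D-type cyclin, was at 9.77, 9.52 and 9.72 log2, or 9.67 ± 0.13 (SD, n = 3), at least 3.47 above the limit of each array. Ccnd3 was at 7.51, 7.998 and 7.65, or 7.72 ± 0.25. Ccnd1 was at 6.41, 6.67 and 6.39, or 6.49 ± 0.15. Ccnd1 was 0.12 over the limit on array 1, and with the 99th percentile of the receptor genes as the limit it was no longer above the range. Their kinase Cdk4 was at 8.65, 8.89 and 8.99, or 8.84 ± 0.17. Its relative Cdk6, which binds the same cyclins, was at 8.03, 7.38 and 8.33, or 7.92 ± 0.49, the widest spread of the class. Cdk6 was lowest on array 2, also after quantile normalization, while its highest array was array 3 as deposited and array 1 after that normalization. All 6 pairs of a D cyclin with Cdk4 or Cdk6 had both partners above the range.

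For S phase the kinase was above the range and its cyclins were not. Cdk2 was at 7.50, 7.26 and 7.22 log2, or 7.33 ± 0.15 (SD, n = 3), at least 1.21 above each limit. Ccne1, an E-type cyclin that activates Cdk2 at the G1 to S transition, was at 6.04, 5.87 and 6.10, over the limit on array 3 alone. Ccne2, its relative, was at 5.38, 5.19 and 5.92, likewise over the limit on array 3 alone. These E cyclins missed or passed the limit by 0.91 or less on any array. Ccna2, the A-type cyclin of dividing somatic cells, was at 6.54, 5.71 and 6.06 and missed the limit on array 2, by 0.27. Without array 2 it was above the range. Ccna1, which acts mainly in the germ line, was at 4.98, 5.08 and 5.004, below the limit throughout. None of the 4 pairs of an E or A cyclin with Cdk2 thus had both partners above the range, and a gene below it is not shown to be absent.

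The transcriptional branch had 10 of 13 genes above the range. The kinases Cdk8 and Cdk19, which sit in the Mediator complex, were at 8.99, 9.15 and 9.63 and at 8.26, 7.62 and 8.60 log2. Their cyclin, Ccnc, was at 5.47, 5.89 and 6.09, over the limit on array 3 alone. One further probe set names Cdk8 together with an rRNA gene and was not used. Ccnk, which activates Cdk12 and Cdk13, kinases of the elongating polymerase, was at 8.14, 8.54 and 8.65. Cdk13 was at 8.08, 8.76 and 8.22 and Cdk12 at 6.83, 6.44 and 7.21, so both Ccnk pairs were above the range. Ccnl1 and Ccnl2, cyclins that act with Cdk11 proteins in RNA splicing, were at 9.20 ± 0.14 and 7.43 ± 0.49 (SD, n = 3).

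The kinase that activates other Cdks consists of Cdk7, cyclin H and the assembly factor Mnat1, and it also belongs to the transcription factor TFIIH. Ccnh was at 7.82, 7.86 and 8.46 log2 and Mnat1 at 6.88, 6.64 and 8.36, and both were above the range. All 3 genes had their highest value on array 3, as did 29.8% of all genes and 40.5% of all genes above the range. Cdk7 was at 6.29, 5.69 and 6.71, and it missed the limit on array 1 by 0.01 and on array 2 by 0.29. It was read by 2 probe sets that disagreed. One, with 6 accessions, was at 6.53, 6.59 and 6.98, above the limit on each array. The other, with 1 accession, was at 6.05, 4.79 and 6.44, so the low value on array 2 came from that probe set. By its brighter probe set Cdk7 was above the range.

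The elongation kinase P-TEFb is Cdk9 bound to a T-type cyclin, and these partners differed between arrays in opposite directions. Cdk9 was at 7.44, 5.76 and 7.01 log2, lowest on array 2, where alone it missed the limit, and without array 2 it was above the range. Ccnt1 was at 7.25, 8.67 and 7.30, highest on array 2. Ccnt2 was at 6.98, 7.75 and 7.08, also highest on array 2. The order held after quantile normalization for the lowest array of Cdk9 and the highest array of both cyclins. None of the 3 passed the test of spread between arrays described next, so the opposed values are a description of these samples.

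**Figure D3:**
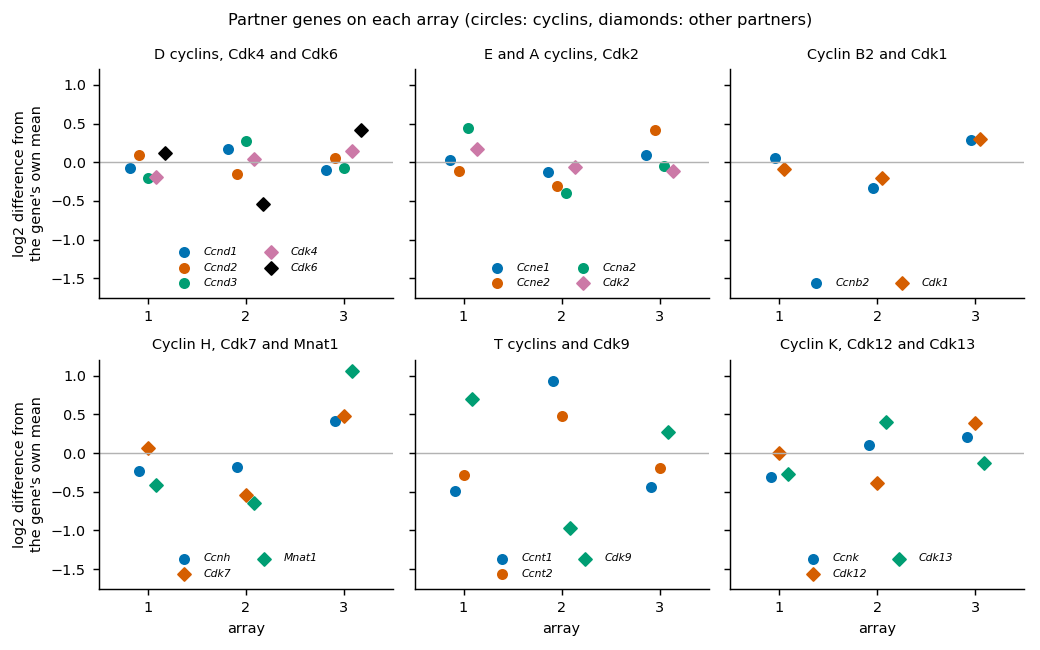
Log2 difference of each gene from its own mean (vertical axis) on arrays 1, 2 and 3 (horizontal axis) for 6 sets of partners, with circles for cyclins and diamonds for their kinases and Mnat1. Ccnt1 at 8.67 and Cdk9 at 5.76 on array 2 stand on opposite sides of their means, while Ccnb2 and Cdk1 keep the same order. That order, lowest on array 2 and highest on array 3, was found for 20.7% of all genes above the range.

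Spread between arrays was tested for every gene with limma, setting its variance against the variance trend at its level (one-sided F test). After Benjamini-Hochberg adjustment over 19938 genes, 0 of the 42 cyclin and Cdk genes passed a threshold of 0.05, and the background was 0% of all genes. With 3 arrays the test had little power, so a count of 0, here or for the lists below, does not show stable levels. Even Vpreb1, an early B cell gene with an SD of 1.71 log2, did not pass (limma, adjusted p = 0.831). At an unadjusted p under 0.05 the count was 3 of 42 (7.14%), against 5.1% of all genes. These were Ccnj, Ccnq and Cdk9. Ccnj, a cyclin of little known function in mammals, was at 4.97, 6.98 and 5.22 log2, and array 2 stood apart (limma, adjusted p = 0.857). Ccnq, named after the human cyclin that activates CDK10, was at 5.52, 5.22 and 6.90, and array 3 stood apart (limma, adjusted p = 0.894). Cdk9 had an adjusted p of 0.948 by limma. Ccnt1 and Cdk7 came next, each with an adjusted p of 0.973 by limma.

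A span of over 1 log2 between the highest and the lowest array was found for 5 of the 42 genes (11.9%), against 10.5% of all genes. They were Ccnj at 2.01, Ccnq at 1.67, Cdk9 at 1.67, Ccnt1 at 1.42 and Cdk7 at 1.01. None was among the 5 genes of G1, the 5 of S phase or the 4 of G2 and mitosis. These are too few to set a count of 0 apart from the 10.5% of all genes, and Cdk6 came close at 0.95. Array 2 held the highest value of Ccnj and Ccnt1 and the lowest of Ccnq, Cdk9 and Cdk7, and without array 2 only Ccnq still spanned over 1 log2. At the other end, Cdk18, a kinase of the PCTAIRE subfamily, differed by 0.03 log2 over the 3 arrays.

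**Figure D4:**
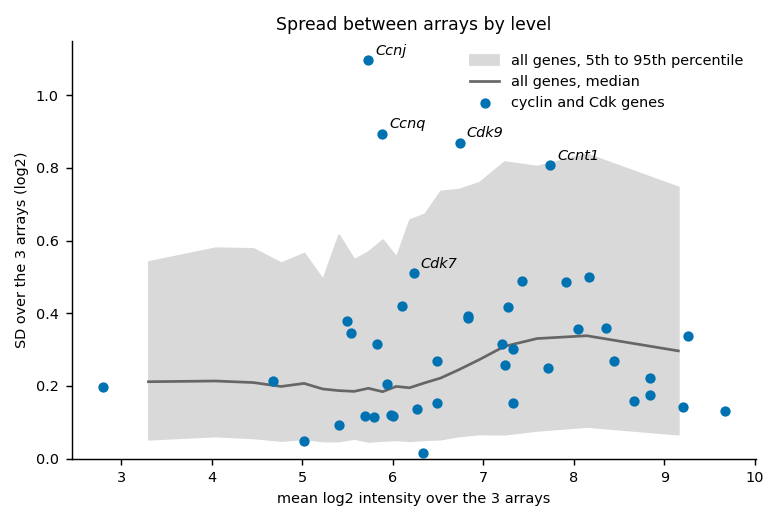
SD over the 3 arrays (vertical axis, log2) against mean log2 intensity (horizontal axis) for the 42 cyclin and Cdk genes, over the median and the 5th to 95th percentile of all genes in 20 bins of level. Ccnj, Ccnq and Cdk9 lie above the grey band, and the 5 genes with a span over 1 log2 are labelled.

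By their medians, arrays 2 and 3 lay further apart at these genes than at all genes. The median absolute difference between arrays 2 and 3 was 0.42 log2 over the 42 genes, against 0.26 over all genes. Between arrays 1 and 2 it was 0.25, against 0.26 over all genes, and between arrays 1 and 3 it was 0.25, against 0.25. For the genes above the range, the difference between arrays 2 and 3 was 0.48 for the cyclin and Cdk genes, against 0.29 for all genes. After quantile normalization it was 0.38 for the 42 genes, against 0.24 for all genes. These medians were not tested.

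The highest value lay on array 3 for 18 of the 42 genes, against 29.8% of all genes, on array 2 for 14, against 38.6%, and on array 1 for 10, against 31.6%. The lowest lay on array 2 for 15, against 28.8%, on array 1 for 15, against 34.1%, and on array 3 for 12, against 37.1%. Genes above the range tilted the same way in the deposited values, with 40.5% of them highest on array 3. These counts depended on the scaling. After quantile normalization the highest value lay on arrays 1, 2 and 3 for 14 of the 42 genes each. For all genes the shares were 33.6%, 36.9% and 29.4%. The lowest then lay on arrays 1, 2 and 3 for 7, 18 and 17 of the 42 genes (16.7%, 42.9% and 40.5%). For all genes those shares were 34.4%, 31.6% and 33.9%, and for all genes above the range 27.1%, 33.6% and 39.3%. Of all genes above the range, 26.6% were then highest on array 3 and 39.6% on array 1, so the tilt of highest values to array 3 did not hold. The lower share of the 42 genes lowest on array 1 was not tested. Lowest on array 2 and highest on array 3 together, the order of Ccnb2 and Cdk1, was found for 9 of the 42 genes (21.4%), against 14.6% of all genes and 20.7% of all genes above the range. Both genes kept it after quantile normalization. It was then found for 9 of the 42 genes, against 2936 of all 19938 genes and 1076 of the 7345 genes above the range.

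Markers of dividing and of other cells were set beside these values, and 0 of the 56 marker genes passed the limma test of spread after adjustment. An unadjusted p under 0.05 was found for 5 (8.93%), against 5.1% of all genes. The counts above the range are read beside the 36.8% of all genes. Of 11 proliferation genes 7 were above the range, with mean log2 values of 6.869, 6.775 and 6.996 on arrays 1, 2 and 3. Their lowest value lay on array 2 for 5 genes, on array 1 for 4 and on array 3 for 2. The list's summed intensity of 2513, 2407 and 3595 moved mainly with Pcna, which was at 10.58, 10.52 and 11.31 log2. Of 14 granulocyte genes 9 were above the range, with a summed intensity of 9665, 16269 and 15072. Their lowest value lay on array 1 for 12 genes and on array 2 for 2. S100a8 was at 11.73, 12.31 and 12.20 log2 and S100a9 at 11.94, 12.57 and 12.61. Of 6 monocyte and dendritic cell genes 3 were above the range, with sums of 902, 1606 and 1087 that moved mainly with Lyz2, at 9.06, 10.26 and 9.51 log2. Of 5 measured B cell genes 1 was above it, with sums of 252, 288 and 724, and the early B cell gene Vpreb1 was at 9.02 on array 3, against 5.81 and 6.38 on arrays 1 and 2. The erythroid list had 2 of 6 above it with sums of 434, 473 and 481, the megakaryocyte list 3 of 4 with 364, 331 and 489, and the T and NK list 1 of 6 with 319, 271 and 365. No marker was listed at 0. Their part in the spread of the cyclin and Cdk genes was not tested. In bulk samples, fewer cells of a type and less RNA per cell cannot be told apart.

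The remaining 15 genes have roles outside the main cycle engine, and 6 of them were above the range. Ccng2, a cyclin associated with arrest of the cycle, was at 7.15, 6.95 and 6.40 log2, or 6.83 ± 0.39 (SD, n = 3). Ccny, a membrane-bound cyclin that activates Cdk14 and Cdk16, was at 7.35, 7.42 and 6.95, or 7.24 ± 0.26. Cdk16, its PCTAIRE partner, was at 7.09, 7.23 and 7.67, while Cdk14 was at 5.83, 5.16 and 5.61, below the limit on every array. Cdk17, the third PCTAIRE kinase beside Cdk16 and Cdk18, was at 8.66 ± 0.16. Cdk18 was at 6.33, 6.34 and 6.31, only 0.03 over the limit on array 1.

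Ccni, an atypical cyclin, was at 8.73, 9.10 and 8.70 log2. Its 2 probe sets, with 3 accessions each, averaged 9.25 and 8.44. The other 9 genes were not above the range. Ccno, which acts in cells with many cilia, and Cdk15 were below the limit on every array, at 5.69 ± 0.12 and 4.68 ± 0.21 (SD, n = 3). Cdk20, a kinase linked to cilia, was at 6.11, 6.32 and 6.36 and missed the limit on array 1 alone. Cdk5, best known from neurons, was at 5.93, 6.14 and 5.73, over the limit on array 2 alone, as was Ccnj. Cdk10 was at 6.11, 5.95 and 5.87, and its 2 probe sets, with 7 accessions each, averaged 6.03 and 5.92. Cdk3, annotated in RefSeq as a transcribed pseudogene in the mouse, was at 5.72, 5.74 and 5.92. Cdk10, Cdk3 and Ccnq passed the limit on array 3 alone, where the limit was lowest. Cdk10 had its lowest value on that array.

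Cdk12, like Cdk7, had 1 probe set above the range on all arrays and 1 that was not. The one with 6 accessions was at 7.83, 7.69 and 7.72 log2, and the one with 1 accession at 5.82, 5.18 and 6.69, above the limit on array 3 alone. The SD was 0.08 for the first and 0.76 for the second, so the spread given for Cdk12 came mainly from the second. For both Cdk7 and Cdk12 the probe set with 1 accession was the dimmer and the more variable.

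Genes that act on the cyclin-Cdk pairs were counted in 5 lists, which were not tested against each other, and the share above the range is read beside the 36.8% of all genes. Of 7 measured CDK inhibitors 3 were above it (42.9%). They were Cdkn1b, which encodes p27 and was at 8.02, 9.03 and 8.58 log2, Cdkn1c, which encodes p57 and was at 6.82, 6.82 and 6.94, and Cdkn2b at 6.42, 6.26 and 6.19. Of 8 genes that phosphorylate, dephosphorylate or bind Cdk subunits 6 were above it, and the phosphatase genes Cdc25a at 6.35 ± 0.22 and Cdc25c at 5.33 ± 0.22 were not (SD, n = 3). The inhibitory kinase gene Wee1 was at 7.84, 9.08 and 7.996, highest on array 2, and Cks1b, which encodes a small Cdk-binding protein, was at 8.71, 7.96 and 9.45, lowest on array 2.

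Of 13 genes of pocket proteins, the targets of G1 Cdks, and of E2F and Tfdp factors, 8 were above the range. The 5 others were Rbl1 at 6.37 ± 0.76, E2f1 at 5.66 ± 0.20, E2f2 at 5.92 ± 0.11, E2f5 at 5.47 ± 0.60 and E2f8 at 5.66 ± 0.23 log2 (SD, n = 3). Of 11 genes of cyclin destruction 9 were above it, all but Cdc20 at 6.05 ± 0.06 and Fbxo4 at 6.36 ± 0.62. Of 11 measured partners of the transcriptional kinases 9 were above it, all but Hexim1, an inhibitor of P-TEFb, at 6.45 ± 0.16 and the TFIIH helicase gene Ercc2 at 5.52 ± 0.11. Hexim1 missed it on array 1 alone, as did Cdc20 and Cdc25a. None of the genes in these 5 lists passed the test of spread between arrays by limma after adjustment, and 5 of the 50 measured (10%) had an unadjusted p under 0.05, against 5.1% of all genes.

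Over all 24 measured pairs of a cyclin or Mnat1 with its kinase, 10 had both partners above the range. Many pairs share a gene, so this count restates the calls of single genes. Those were 57.1% of the 42 genes, against 36.8% of all genes. No share was computed for pairs of other genes, so the count is no result about partners. They were the 6 D cyclin pairs, Ccnb2 with Cdk1, Ccnk with Cdk12 and with Cdk13, and Ccny with Cdk16. With the 99th percentile as the limit 5 pairs were left, Ccnd2 and Ccnd3 with Cdk4 and with Cdk6, and Ccnk with Cdk13. Without array 2 there were 14, the added pairs being Ccna2 with Cdk2 and with Cdk1, and Ccnt1 and Ccnt2 with Cdk9. With the brighter probe set of each gene there were 12, the added pairs being Cdk7 with Ccnh and with Mnat1.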

How the data were processed

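Per the labels' protocols, RNA was purified on columns, amplified with the NuGen Ovation System and labelled with biotin. Per the submitters' processing notes, the authors made the deposited intensities by RMA with Affymetrix Expression Console. The sources used here give neither versions nor which arrays were normalized as one set. RMA forces arrays run together onto one distribution, which removes most array-wide differences. Values were on a linear scale, from 2.82 to 18384, and were analysed as log2 with no pseudocount. Of 35554 probe sets, 21789 named 1 gene, 1621 named several and 12144 were not listed. Log2 values of probe sets of 1 gene were averaged. The number of arrays, 3, limits precision.

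Spread was tested with limma 3.58.1, using its robust variance trend, in R 4.3.3. The procedure was also run on simulated data, and the outcome of that run is not given here. Alternatives were the 99th percentile or olfactory receptors alone as limit, the brightest probe set, a pseudocount of 16, quantile normalization, no robust option, a filter on low values, and each array left out. Genes were named by a rule: each G1, S and G2/M member by array, others by side of the limit, and the 5 with the smallest p. The cyclin and Cdk genes, lists and motifs were chosen with earlier results of these data known.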

Additional observations from a re-analysis of the deposited data

How the results depend on the processing

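The count of cyclin and Cdk genes above the background range, 24, was 17 with the 99th percentile as the limit (40.5%, against 17.4% of all genes) and 23 to 26 under the other 6 alternatives. The count for all genes, 7345, was 3469 with the 99th percentile. The genes lost there were Ccnd1, Ccng2, Ccnt2, Cdk1, Cdk12, Cdk16 and Cdk18. Cdk7 was gained with the brightest probe set, Cdk20 without array 1, and Ccna2 and Cdk9 without array 2. The median level of 6.78 log2 was 6.99 with a pseudocount of 16, which raises low values by construction, and ran between 6.61 and 6.90 when an array was left out. The number spanning over 1 log2, 5, was 3 among genes with a mean above the limit, where fewer genes enter, and between 1 and 5 when an array was left out (1 without array 2, 3 without array 3). The count of genes passing the limma test of spread stayed at 0 under all 8 alternatives, for the 42 genes and for all genes. No alternative had more than 3 arrays, so power stayed low and the constant 0 does not show that the result is robust. Of the 42 single levels, 15 moved by over 1 SD with the pseudocount, and 2, Ccni and Cdk12, with the brightest probe set. No paired analysis was possible because there is 1 group. Without detection calls, levels near the limit cannot be told from background.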
